A study of Mus musculus with 7 samples.

Results

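Chemokine receptors are G protein-coupled receptors that steer leukocytes along gradients of small secreted proteins, the chemokines. The receptors of inflamed tissue let activated T cells leave the blood for sites such as the skin, the gut and, in autoimmune encephalomyelitis, the central nervous system. Different helper subsets are known for different receptors, for example Cxcr3 for Th1 cells, Ccr6 for Th17 cells, and Ccr4 and Ccr8 for Th2 and regulatory T cells. The 9 genes described here are Cxcr3, Cxcr6, Ccr1, Ccr2, Ccr4, Ccr6, Ccr8, Ccr10 and Cx3cr1, taken by symbol from 39017 genes in the count table. All 9 passed the filter on low counts and were among the 15968 genes tested.

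The libraries came from CD4+ T cells of female C57BL/6 mice in which EAE (experimental autoimmune encephalomyelitis), the immune disease of myelin used to model multiple sclerosis, had been induced. Cells of the lymph nodes were taken on day 17, held for 18 hours with residues 35 to 55 of myelin oligodendrocyte glycoprotein (MOG) at 25 µg/mL, and sorted for CD4. Both groups were homozygous for floxed Kdm6a, an X-linked gene for a demethylase of lysine 27 on histone H3. The conditional knockout (cKO, replicates 2, 3, 7 and 12) also carried 1 copy of CD4-Cre, and the littermates called WT (replicates 10, 14 and 19) carried no Cre. An effect of Cre itself and one of deleting Kdm6a thus cannot be told apart. CD4-Cre is active from the thymus onward, before the CD4 and CD8 lineages separate. Neither the age of the mice nor whether every library is a separate animal is stated in the sources used here, and p-values then measure only how these libraries vary.

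Total counts ran from 17910536 (cKO 2) to 23721927 (cKO 3) in cKO. In WT they were all higher, from 25360660 (WT 10) to 28697579 (WT 14). Cd4 stood at 986 to 1241 CPM (read counts scaled to a common library size) and Cd3e at 366 to 457 in the 7 libraries, and Cd8a at 0.284 to 2.78. Kdm6a was 101 ± 3.67 CPM in cKO and 119 ± 6.01 in WT (SD, n = 4 and 3), a small fall summed over the whole gene, of which the floxed part is not given in the sources used here (log2 fold change -0.24 ± 0.06 SE, adjusted p = 0.0414 by edgeR). That call was lost without cKO 3 (adjusted p = 0.0985), 7 (0.0811) or 12 (0.0538), or WT 10 (0.142), 14 (0.173) or 19 (0.0604). Library cKO 2 stood apart: the abundant transcript Gm42418 took 9.22% of its counts, against 3.76% to 4.26% in the other cKO libraries. In WT that share was lower still, at 2.55% to 2.98%. Neither total counts nor this share overlapped between the groups, and their part in the differences was not tested. Markers of other cells were also high in cKO 2. The 8 monocyte and macrophage markers summed to 85.3 CPM in cKO 2, to 16.1 to 34.0 in the other cKO libraries and to 17.0 to 20.8 in WT. The 7 B cell markers summed to 189 CPM in cKO 2, to 32.3 to 144 in the other cKO libraries and to 31.2 to 77.0 in WT. The log2 fold change of each of the 9 receptors is therefore also given without it.

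In cKO cells 3 of the 9 receptors rose. Ccr1 was 3.99-fold, Ccr10 3.90-fold and Cxcr3 2.15-fold higher than in WT. Of all genes tested by edgeR 6.44% were called, 2.79% as higher and 3.64% as lower. None of the 9 fell by edgeR or DESeq2, whereas limma voom called Ccr8 lower. At an unadjusted p under 0.05 by edgeR, 4 were higher and 1 was lower, beside 21.5% of all genes in either direction. DESeq2 called 10.2% of all genes, 4.8% as higher and 5.37% as lower, and limma voom called 10.8%, 5.02% as higher and 5.81% as lower. The median log2 fold change of the 9 receptors was 0.62, beside 0.01 for all genes tested, and without cKO 2 it was 0.29, beside 0.0075. The same 3 receptors were called as higher in each of 3 other fits. Without cKO 2, 6.73% of all genes were called, 2.7% higher and 4.03% lower. With a covariate for B cell, monocyte and dendritic cell markers the shares were 4.63%, 1.7% and 2.94%. Without cKO 2 and 7, the libraries richest in B cell markers, they were 4.36%, 1.6% and 2.76%. In these bulk samples, more cells that carry a receptor and more mRNA per cell cannot be told apart.

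**Figure D1:**
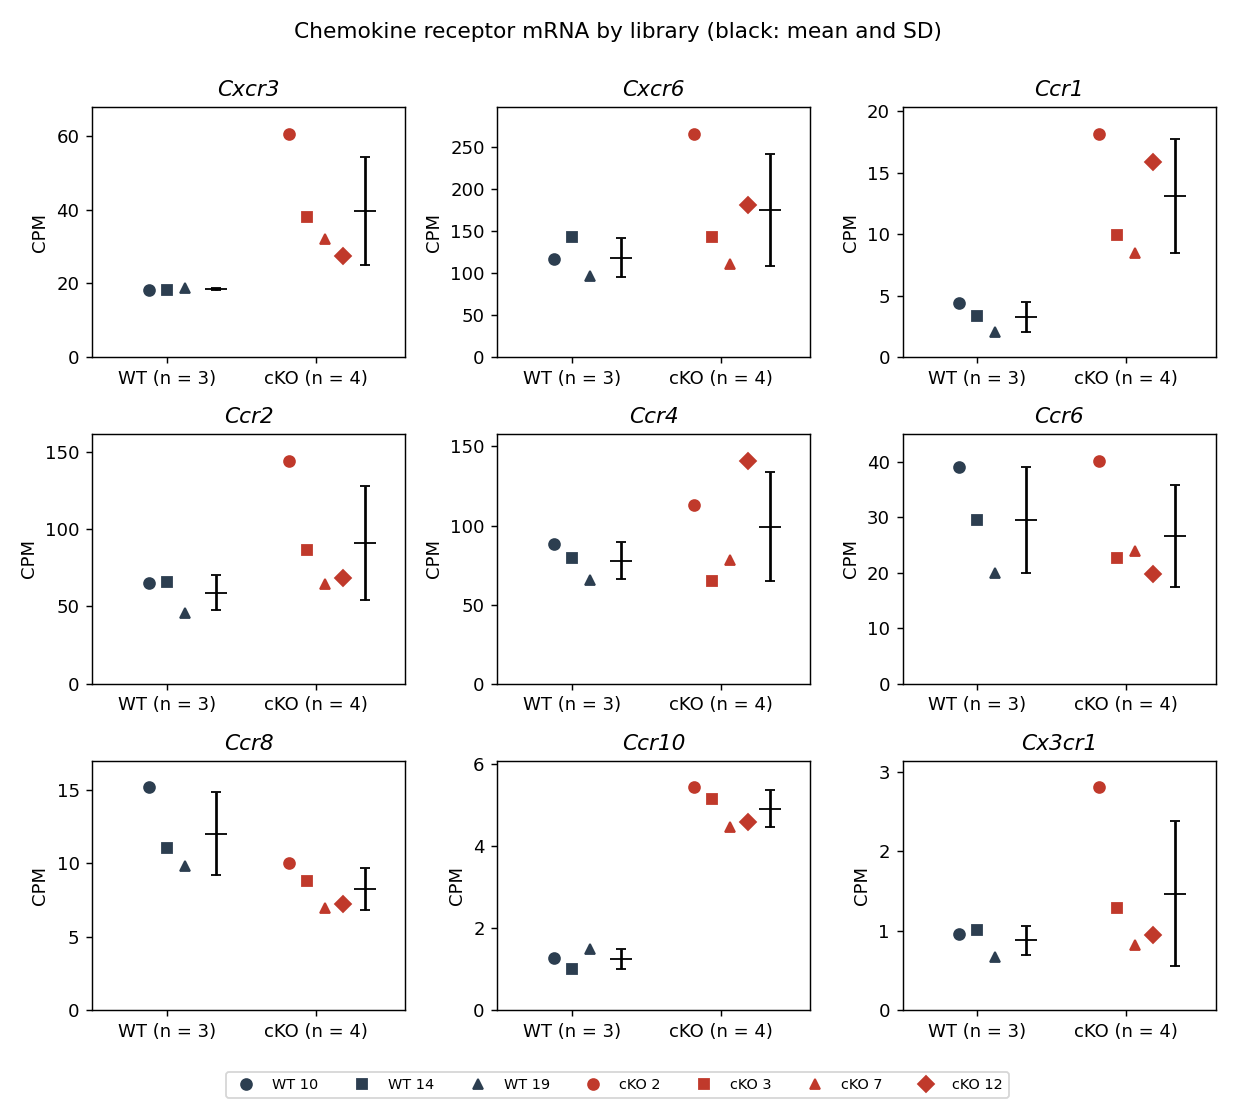
CPM of each receptor in every library, with WT in dark blue and cKO in red, a separate marker for each library, and the mean and SD in black beside the points. For Cxcr3, Ccr1 and Ccr10 all 4 cKO points lie above all 3 WT points, and cKO 2 is the highest library for Cxcr3, Cxcr6, Ccr1, Ccr2, Ccr6, Ccr10 and Cx3cr1.

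Cxcr3 is the receptor for the interferon-induced chemokines Cxcl9, Cxcl10 and Cxcl11 and the classic receptor of Th1 cells. Like Kdm6a it is X-linked (ENSMUSG00000050232, chromosome X, 101731535 to 101734269 on mm10, minus strand). Its level was 60.5, 38.0, 32.1 and 27.5 CPM in cKO 2, 3, 7 and 12. In WT 10, 14 and 19 it was 18.3, 18.1 and 18.6 CPM. The WT libraries were nearly identical, and the lowest cKO library stood clear of them, while the cKO values were spread over more than a 2-fold range. Group means of 39.5 ± 14.7 and 18.3 ± 0.264 CPM (SD) gave 1.10 ± 0.24 on the log2 scale (SE, edgeR adjusted p = 0.0245; exact two-sided permutation p = 0.0571 over 35 assignments). Of all genes tested, 21.0% had groups that did not overlap, 10.3% with every cKO library above every WT library and 10.7% below. Without cKO 2 the log2 fold change was 0.82 (adjusted p = 0.00345), and with the marker covariate it was 0.78 (adjusted p = 0.0402). The call was lost without WT 10 (adjusted p = 0.096), 14 (0.113) or 19 (0.0937), with log2 fold changes between 1.09 and 1.11, and it was just past the threshold without cKO 3 (0.0492).

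Ccr1 binds Ccl3, Ccl5 and other inflammatory chemokines and is found on monocytes as well as activated T cells (ENSMUSG00000025804, chromosome 9, 123962124 to 123968692, minus strand). It stood at 18.2, 9.89, 8.46 and 15.9 CPM in cKO 2, 3, 7 and 12. The WT libraries 10, 14 and 19 held 4.41, 3.36 and 2.01 CPM. The groups did not overlap, and every cKO library stood well above the highest WT library. The difference between 13.1 ± 4.66 and 3.26 ± 1.20 CPM (mean, SD) was 2.0 ± 0.33 on the log2 scale (SE, edgeR adjusted p = 0.00821; exact permutation p = 0.0571). Ccr1 stayed past the threshold in all 7 fits that left out a library, although only just without WT 14 (adjusted p = 0.0496). It was 1.80 on the log2 scale without cKO 2 and 1.91 with the marker covariate. The monocyte markers summed to 85.3 CPM in cKO 2, the library with the most Ccr1, and to 16.1 CPM, the lowest of the 7 libraries, in cKO 12, which had the next most. Their part in the Ccr1 level was not tested.

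Ccr10, the receptor for Ccl27 and Ccl28, is known from skin-homing T cells and from plasma cells (ENSMUSG00000044052, chromosome 11, 101172997 to 101175443, minus strand). Its level was 5.43, 5.16, 4.47 and 4.59 CPM in cKO 2, 3, 7 and 12. In WT 10, 14 and 19 it was 1.28, 1.01 and 1.5 CPM, from 29 to 38 reads. The 4 cKO libraries were close together and all well above WT. Ccr10 averaged 4.91 ± 0.458 and 1.26 ± 0.246 CPM (SD), 1.96 ± 0.20 apart on the log2 scale (SE, edgeR adjusted p = 0.000631). Its exact permutation p of 0.0286 is the smallest possible with 35 assignments. That difference lay between 1.82 and 2.10 over the 15 alternative fits, and Ccr10 passed the threshold in every one of them. It was 1.91 without cKO 2 (adjusted p = 0.00106). The B cell markers summed to 32.3 CPM in cKO 12 and to 189 CPM in cKO 2, beside 4.59 and 5.43 CPM of Ccr10, and their part in the Ccr10 level was not tested.

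Ccr10 lies on the opposite strand inside the first intron of Cntnap1, between exons that end at 101170957 and begin at 101176041, and the annotation gives the genes no shared exon base. Cntnap1, which encodes a contactin-associated adhesion protein, rose as well. Its level was 23.0, 24.5, 14.2 and 14.7 CPM in cKO 2, 3, 7 and 12 and 7.19, 6.52 and 4.88 CPM in WT 10, 14 and 19. The groups did not overlap for Cntnap1 either (log2 fold change 1.62 ± 0.23 SE, edgeR adjusted p = 0.00383). The libraries were stranded, but no source used here gives the strand setting of the counting. Whether reads from Cntnap1 introns contributed to the Ccr10 counts was not tested.

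**Figure D2:**
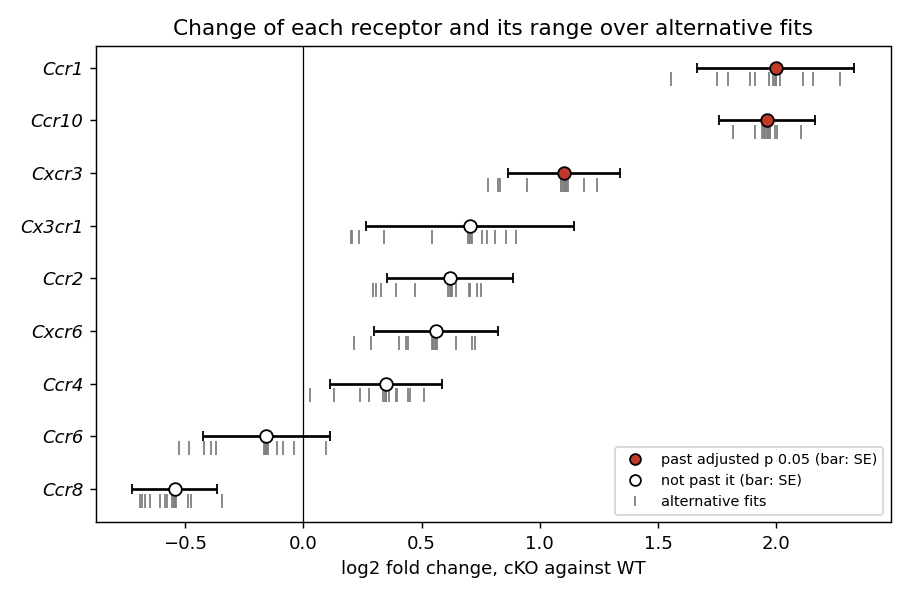
Log2 fold change of each receptor, cKO against WT, from edgeR with its SE as a bar, filled red where the adjusted p was under 0.05. The gray ticks are the 15 alternative fits, which stay above 0 for Ccr1, Ccr10 and Cxcr3, below 0 for Ccr8, and on both sides of 0 for Ccr6.

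RefSeq promoter windows on GRCm38.p6 (250 bases before to 50 after an annotated start) were matched for 8 of the 9 receptors, all but Ccr10. The windows of the 2 risers with an entry are shown because methylation of lysine 27 on histone H3, the mark that Kdm6a removes, is best known at CpG-rich promoters. Capitals mark each CpG, with Cxcr3 at chrX:101734098-101734397 and Ccr1 at chr9:123968643-123968942, both on the minus strand and written 5′ to 3′.
Cxcr3: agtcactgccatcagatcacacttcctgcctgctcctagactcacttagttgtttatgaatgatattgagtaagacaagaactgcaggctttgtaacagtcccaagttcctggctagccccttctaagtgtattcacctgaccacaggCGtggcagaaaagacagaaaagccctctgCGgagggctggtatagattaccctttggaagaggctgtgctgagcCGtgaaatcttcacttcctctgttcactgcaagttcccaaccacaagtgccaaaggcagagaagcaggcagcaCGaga
Ccr1: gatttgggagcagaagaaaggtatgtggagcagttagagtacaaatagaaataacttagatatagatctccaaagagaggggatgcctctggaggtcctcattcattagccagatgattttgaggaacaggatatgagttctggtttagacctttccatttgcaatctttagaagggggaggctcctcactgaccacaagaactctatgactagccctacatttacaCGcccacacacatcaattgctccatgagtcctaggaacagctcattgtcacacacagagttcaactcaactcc
Cxcr3 held 4 CpGs and Ccr1 held 1 in 300 bases, beside a median of 7 over all 32851 promoter windows. The other receptors held 1 to 5, apart from a second annotated start of Ccr6 with 10. Neither strand of any receptor's windows held the T-box core GGTGTG, which 19% of all windows hold.

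Cxcr6 and Ccr2, receptors of effector T cells, did not pass the threshold, and their log2 fold changes were about halved without cKO 2. Cxcr6 binds Cxcl16 and marks effector and tissue-resident cells (ENSMUSG00000048521, chromosome 9, 123806475 to 123811760, plus strand). It stood at 266, 143, 111 and 181 CPM in cKO 2, 3, 7 and 12 and at 116, 143 and 96.5 CPM in WT 10, 14 and 19. The groups overlapped, with cKO 7 below WT 10. On the log2 scale the difference was 0.56 ± 0.26 (SE, edgeR adjusted p = 0.255) and 0.29 without cKO 2 (adjusted p = 0.437). The gene lies in an intron of Fyco1 on the opposite strand, and Fyco1 itself did not pass the threshold (log2 -0.08 ± 0.07 SE, edgeR adjusted p = 0.606).

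Ccr2 binds Ccl2 and is carried by inflammatory monocytes and by effector T cells (ENSMUSG00000049103, chromosome 9, 124101950 to 124113557, plus strand). Its level was 144, 86.7, 64.5 and 68.5 CPM in cKO 2, 3, 7 and 12, and 65.3, 65.7 and 46.0 CPM in WT 10, 14 and 19. Library cKO 7 was below WT 10 and WT 14. Ccr2 differed by a log2 fold change of 0.62 ± 0.27 (SE, edgeR adjusted p = 0.215), 0.31 without cKO 2 (adjusted p = 0.304) and 0.30 with the marker covariate (adjusted p = 0.495). Monocyte markers were highest in the library with the highest Ccr2, and their part in its level was not tested.

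Cx3cr1, the fractalkine receptor of monocytes, microglia and cytotoxic lymphocytes, was the scarcest of the 9 (ENSMUSG00000052336, chromosome 9, 119901616 to 120069879, minus strand). It had 17 to 48 reads a library, or 2.80, 1.29, 0.825 and 0.947 CPM in cKO 2, 3, 7 and 12. In WT 10, 14 and 19 it had 0.967, 1.01 and 0.669 CPM. Apart from cKO 2 and cKO 3 the cKO libraries lay within the WT range. The log2 fold change of 0.70 ± 0.44 (SE, edgeR adjusted p = 0.407) was 0.21 without cKO 2 (adjusted p = 0.775) and 0.20 with the marker covariate (adjusted p = 0.847). The annotated gene spans several other genes and shares 78 exon bases with the antisense gene Gm33858.

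The receptors known from Th2, regulatory and Th17 cells did not pass the threshold by edgeR. Ccr4, a receptor for Ccl17 and Ccl22, stood at 113, 64.7, 78.3 and 141 CPM in cKO 2, 3, 7 and 12 (ENSMUSG00000047898, chromosome 9, 114490316 to 114504916, minus strand). In WT 10, 14 and 19 it was 88.5, 79.6 and 65.5 CPM. The cKO libraries lay on both sides of WT, with cKO 12 highest and cKO 3 lowest. Ccr4 had a log2 fold change of 0.35 ± 0.24 (SE, edgeR adjusted p = 0.451), 0.28 without cKO 2 (adjusted p = 0.607) and 0.13 without cKO 12 (adjusted p = 0.757).

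Ccr8, the receptor for Ccl1, was the receptor with the most negative log2 fold change of the 9 (ENSMUSG00000042262, chromosome 9, 120092114 to 120094906, plus strand). Its level was 9.99, 8.81, 6.99 and 7.24 CPM in cKO 2, 3, 7 and 12 and 15.2, 11.1 and 9.81 CPM in WT 10, 14 and 19. Only cKO 2 and WT 19 kept the groups from separating. Its difference on the log2 scale was -0.54 ± 0.18 (SE, edgeR adjusted p = 0.116) and -0.65 without cKO 2 (adjusted p = 0.0686). By limma voom it was -0.68 with an adjusted p of 0.0333, and over the 15 alternatives the adjusted p ran from 0.0333 to 0.38.

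Ccr6, the receptor for Ccl20, marks Th17 cells and is also carried by B cells (ENSMUSG00000040899, chromosome 17, 8236043 to 8257141, plus strand). It stood at 40.3, 22.6, 23.9 and 19.8 CPM in cKO 2, 3, 7 and 12, and at 39.1, 29.6 and 20.05 CPM in WT 10, 14 and 19. The groups overlapped across nearly their whole range. The log2 fold change was -0.16 ± 0.27 (SE, edgeR adjusted p = 0.794), 0.10 without WT 10 (adjusted p = 0.913), -0.42 without cKO 2 (adjusted p = 0.296) and -0.52 with the marker covariate (adjusted p = 0.132). In both groups the library with the most B cell marker RNA, cKO 2 and WT 10, also had the most Ccr6, and the part of B cells in its level was not tested.

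Ccr6 was the only receptor of the 8 whose promoter windows held the other motif searched, on either strand, the STAT pattern TTCNNNGAA, which 8.3% of all windows hold. Both of its 2 matches lay in the window of the upstream start. A match of letters does not show that a factor binds there.

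Levels of different receptors are compared here per kb of merged exon, the union over annotated transcripts, and the order depends on that length. It was 6.76 kb for Ccr2, against 2.32 kb for Ccr6 and 1.73 kb for Cxcr3. By CPM alone, Ccr2 had a higher mean than both in each group. In WT, Cxcr6 was highest at 61.4 ± 12.0 CPM per kb (SD) and Ccr4 second at 25.2 ± 3.75. Below them came Ccr6 (12.7 ± 4.10), Cxcr3 (10.6 ± 0.153), Ccr8 (10.2 ± 2.38) and Ccr2 (8.73 ± 1.67). The ranges over libraries of these 4 overlapped from each to the next. Ccr1 (1.15 ± 0.425) and Ccr10 (0.730 ± 0.142), whose ranges also overlapped, came well below, and Cx3cr1 was lowest at 0.196 ± 0.0408. In cKO, Cxcr3 followed Ccr4 with 22.8 ± 8.47 CPM per kb and had a higher mean than Ccr2, Ccr6 and Ccr8, with a range that overlapped those of Ccr4, Ccr2 and Ccr6. Ccr1 at 4.62 ± 1.64 and Ccr10 at 2.85 ± 0.265 CPM per kb kept the seventh and eighth places, below Ccr8 at 7.03 ± 1.20.

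**Figure D3:**
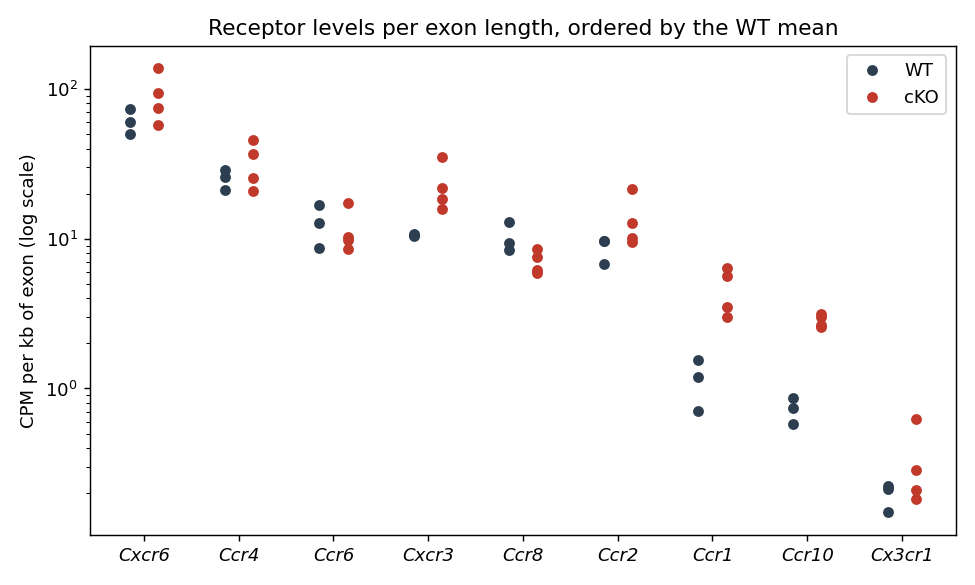
CPM per kb of merged exon length on a log axis for every library, receptors ordered by the WT mean, WT in dark blue and cKO in red. Cxcr6 leads in both groups, Cxcr3 lies below Ccr6 in the WT order and above it in cKO, and Cx3cr1 is lowest in both.

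Ratios between receptors within a library do not depend on how libraries are scaled. They were chosen after the values were seen and are given without a test. The ratio of Cxcr3 to Ccr6 counts was 1.5, 1.68, 1.34 and 1.38 in cKO 2, 3, 7 and 12. In WT 10, 14 and 19 it was 0.468, 0.613 and 0.929. Cxcr3 thus had more reads than Ccr6 in every cKO library and fewer in every WT library. These counts are not scaled by exon length. Per kb of exon, Cxcr3 was above Ccr6 in WT 19 as well, at 10.8 against 8.64 CPM per kb. Ccr1 and Ccr2 lie 133 kb apart in the receptor cluster on chromosome 9, and their ratio was 0.126, 0.114, 0.131 and 0.232 in cKO 2, 3, 7 and 12. The WT ratios were 0.0675, 0.0512 and 0.0437, all lower, so Ccr1 was higher relative to Ccr2 in each cKO library, cKO 2 included. Another receptor gene, Ccr3, lies between them and had a log2 fold change of 2.24 ± 0.61 (SE, edgeR adjusted p = 0.0636). Every cKO library had more Ccr3 CPM than every WT library. The ratio of Ccr1 to Ccr2 thus does not show a rise particular to Ccr1 in the cluster. The ratio of Cxcr3 to Tbx21, the gene of T-bet, the master regulator of Th1 cells, overlapped between the groups, at 0.564 to 1.16 in cKO and 0.780 to 1.25 in WT.

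**Figure D4:**
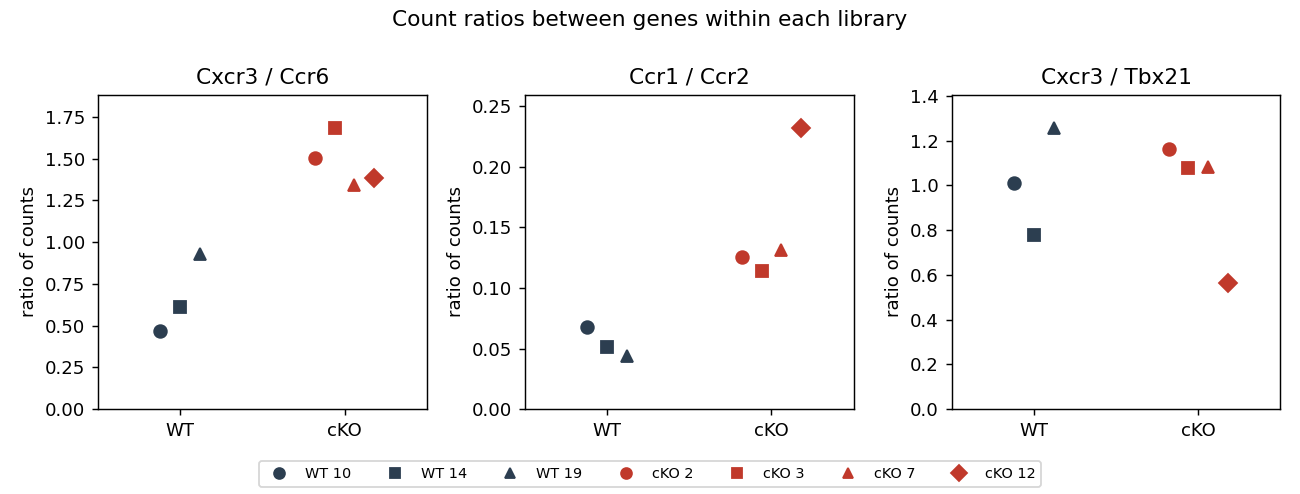
Ratio of read counts between pairs of genes in each library, WT in dark blue and cKO in red. The Cxcr3 to Ccr6 and Ccr1 to Ccr2 ratios are higher in all 4 cKO libraries than in the 3 WT libraries, and the Cxcr3 to Tbx21 ratio overlaps.

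Most of the receptor genes share a chromosome. Cxcr6, Ccr1 and Ccr2 lie within one cluster on chromosome 9, with Ccr8 and Cx3cr1 22.2 kb apart elsewhere on it, and Ccr4 farther away. Within 250 kb of any of the 9 receptors 56 other protein-coding genes were tested. Of these, 2 rose and 0 fell by edgeR, beside 2.79% and 3.64% of all genes tested. Their median log2 fold change was -0.01, and 27 of them lay near Ccr10, where it was -0.05. It was 0.39 over 6 genes near Ccr1 and 0.89 over 4 near Ccr2, sets that share genes, Ccr3 among them. Near the other receptors it ran from -0.06 (Ccr6) to 0.19 (Cxcr6). Cntnap1 at the Ccr10 locus was the call with the lower p. Also near Ccr10, Plekhh3, 1.65 kb beyond its 3′ end, differed by 0.83 ± 0.21 on the log2 scale (SE, edgeR adjusted p = 0.0514), and Ezh1, a methyltransferase gene for the same histone residue, had -0.04 ± 0.06 (adjusted p = 0.781). These last 2 were chosen after their values were seen.

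Of 13 other chemokine receptor genes listed, 10 were tested, and 1 fell and 0 rose by edgeR (2 and 2 at an unadjusted p under 0.05; 1 higher and 2 lower by DESeq2, and as many by limma voom). Their median log2 fold change was 0.15, and 0.07 without cKO 2. Ccrl2, which encodes an atypical receptor that binds chemerin, went from 30.3 ± 3.26 to 17.0 ± 2.08 CPM (SD; log2 fold change -0.83 ± 0.11 SE, adjusted p = 0.0029). Ccr7, the lymph node homing receptor, averaged 446 ± 81.7 CPM over the cKO and 459 ± 40.6 over the WT libraries (SD; adjusted p = 0.905). Cxcr4, a receptor for Cxcl12 on most leukocytes, was 149 ± 30.2 and 122 ± 35.4 CPM (adjusted p = 0.488).

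Transcripts of ligands for the 9 receptors were also counted in these libraries, and which cells they came from was not tested. Of 20 listed, 13 were tested, and 1 rose and 1 fell by edgeR. At an unadjusted p under 0.05, 5 were higher and 1 was lower. DESeq2 called 3 higher and 1 lower, and limma voom 1 and 1. The median log2 fold change was 0.66, and 0.35 over 12 tested without cKO 2. Ccl5, a ligand of Ccr1, rose 11.5-fold, from 12.2 ± 4.52 to 140 ± 37.4 CPM (SD; log2 3.53 ± 0.28 SE, adjusted p = 0.000181). Cxcl10, a ligand of Cxcr3, fell from 119 ± 30.4 to 36.2 ± 5.73 CPM (log2 -1.72 ± 0.17, adjusted p = 0.00049). Thus Ccr1 and Ccl5 both rose, whereas Cxcr3 rose and Cxcl10 fell. Other ligands of these receptors were not called by edgeR. Ccl3, also a ligand of Ccr1, had a log2 fold change of 1.21 ± 0.51 (SE, edgeR adjusted p = 0.206). Among the other listed ligands, Ccl6 had 4.21 ± 1.27 (adjusted p = 0.0908) and Ccl9 2.69 ± 0.85 (adjusted p = 0.102). For both, every cKO library was above every WT library, as for 10.3% of all genes tested, and cKO 2 was highest (37.7 and 11.7 CPM). Ccl6 and Ccl9 were chosen after their values were seen. Cxcl9 and Cxcl11, also ligands of Cxcr3, were too low to be tested. Ccl22, the most abundant ligand gene that was not called, had 23.8 ± 10.2 and 14.98 ± 8.04 CPM (adjusted p = 0.417).

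Among 28 tested genes that act downstream of the receptors or modify them, 2 rose and 3 fell by edgeR, and the median log2 fold change was -0.04. At an unadjusted p under 0.05, 2 were higher and 7 lower. DESeq2 called 2 higher and 5 lower, limma voom 1 and 6, and the fit with the marker covariate 0 and 3. The tyrosylprotein sulfotransferases, which sulfate the ligand-binding ends of many chemokine receptors, moved apart. Tpst1 rose from 11.6 ± 1.24 to 16.4 ± 2.02 CPM (SD; log2 0.50 ± 0.12 SE, adjusted p = 0.0396), and Tpst2 fell from 122 ± 3.62 to 97.99 ± 2.72 CPM (log2 -0.32 ± 0.05, adjusted p = 0.00751). Of the RGS genes, whose proteins shorten G protein signals, Rgs10 (log2 -0.70 ± 0.08, adjusted p = 0.00105) and Rgs2 (log2 -0.78 ± 0.17, adjusted p = 0.028) fell. Rgs3 rose (log2 0.52 ± 0.13, adjusted p = 0.0461), a gene named after its values were seen. The Tpst1 call was lost without cKO 3 (adjusted p = 0.0612), 7 (0.0756) or 12 (0.0534) or WT 10 (0.0588), 14 (0.173) or 19 (0.15), and with the marker covariate (0.104). That of Rgs2 was lost without cKO 3 (0.0644) or WT 10 (0.115) or 14 (0.136). That of Rgs3 was lost without cKO 2 (0.0686) or 3 (0.101) or WT 10 (0.0845), 14 (0.195) or 19 (0.154), with the covariate (0.121) and by limma voom (0.0576).

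Of 18 helper cell regulators, 2 rose and 1 fell by edgeR, with a median log2 fold change of 0.0013, and -0.029 without cKO 2. At an unadjusted p under 0.05, 4 were higher and 4 lower. DESeq2 and limma voom both called 2 higher and 2 lower, and the fit with the covariate 2 and 0. Tbx21, known to drive Cxcr3 in Th1 cells, was 52.1, 35.2, 29.7 and 48.7 CPM in cKO 2, 3, 7 and 12 and 18.1, 23.2 and 14.8 CPM in WT 10, 14 and 19. Its log2 fold change, 1.14 ± 0.22 (SE, adjusted p = 0.0142), was of the size of that of Cxcr3, although cKO 12 had the second highest Tbx21 and the lowest Cxcr3 of the cKO group. The Tbx21 call was lost without WT 10 (adjusted p = 0.0694) or 19 (0.0678). Eomes, a related T-box gene, rose 5.71-fold (adjusted p = 0.000653). Foxo1, a regulator of naive T cell homing, fell (log2 -0.38 ± 0.08, adjusted p = 0.0188), a call lost without WT 14 (0.0715) or 19 (0.0848) and with the covariate (0.064). Gata3, the Th2 regulator, did not pass the threshold (log2 0.42 ± 0.16, adjusted p = 0.173, and 0.22 without cKO 2). Nor did Foxp3, the regulatory T cell factor (0.23 ± 0.19, adjusted p = 0.535, and 0.09 without cKO 2). Ccr4 and Ccr8 did not pass it by edgeR either, but Ccr8 differed in the other direction (log2 -0.54) and was called lower by limma voom.

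**Figure D5:**
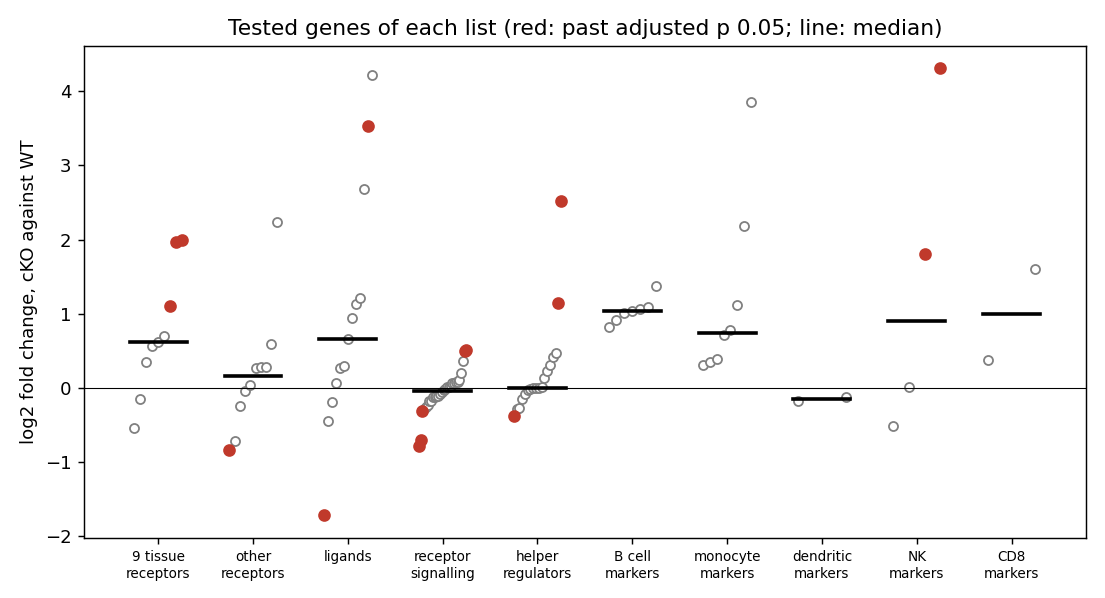
Log2 fold change, cKO against WT, of every tested gene in each list, with genes past an adjusted p of 0.05 in red and the list median as a black line. The 9 tissue receptors have 3 red points, all above 1, and the other chemokine receptors have 1, Ccrl2, below 0.

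The natural killer (NK) markers did not all move with the receptors that rose. The 5 listed summed to 9.75 to 15.5 CPM in cKO and 3.99 to 5.40 in WT, and 2 of the 4 tested rose. These were Klre1 (log2 4.31 ± 0.33 SE, edgeR adjusted p = 0.000143) and Klrb1c (1.80 ± 0.25, adjusted p = 0.0031), both named after their values were seen. The defining marker Ncr1 was 0.651 to 1.34 CPM in cKO and 0.630 to 1.08 in WT, and the granzyme gene Gzma was 0.947 to 1.46 and 1.18 to 2.28 CPM. The 2 CD8 markers summed to 12.9 to 16.3 CPM in cKO and 9.12 to 11.5 in WT, with neither past the threshold by edgeR (2 higher at an unadjusted p under 0.05, and 1 each by DESeq2 and limma voom). The part of such cells in the levels of Cxcr3, Ccr1 and Ccr10 was not tested. None of the 7 B cell or 8 monocyte and macrophage markers was called by edgeR, although 15 of these 15 had a positive log2 fold change. At an unadjusted p under 0.05, 2 of the monocyte and 0 of the B cell markers were higher, and DESeq2 called 1 and 0. Of the 2 dendritic and 3 neutrophil markers tested, 0 were called by edgeR or DESeq2 and 0 had an unadjusted p under 0.05. The dendritic marker Clec9a had 0 counts in every library, which allows up to 0.104 to 0.175 CPM at 3 counts a library.

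The genes most like each riser over the 7 libraries were found by the root mean square difference between log2 CPM profiles, each centred on its own mean, among 9702 protein-coding genes. For Cxcr3 these were Cables1 (0.0809), Ctsw (0.113) and Smim24 (0.130). Cables1 encodes a regulator of cyclin-dependent kinases, and Ctsw a cathepsin of cytotoxic lymphocytes. For Ccr1 they were Palld (0.253), which encodes an actin-binding protein, the NK receptor gene Klrc1 (0.276) and the kinase gene Lrrk1 (0.319). For Ccr10 they were Zfp608 (0.245), the interferon-induced gene Ifi44 (0.252) and Ifitm10 (0.313). These 9 were chosen for their likeness to genes that rose, so that their own rises, of 1.06 to 2.23 on the log2 scale, add no support. Without WT 10, 14 or 19 the calls of Cables1 (adjusted p = 0.0954, 0.13 and 0.1), Ctsw (0.0819, 0.0934 and 0.065) and Smim24 (0.052, 0.0702 and 0.0529) were lost, as was that of Cxcr3. That of Cables1 was also lost without cKO 3 (0.0613) and with the covariate (0.0537).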

How the data were processed

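Messenger RNA of sorted CD4+ T cells was sequenced in 4 cKO and 3 WT libraries. The authors deposited a table of counts by Ensembl identifier; its whole numbers and unequal library totals are those of unnormalized reads. Per the labels' protocols the libraries were stranded and enriched for mRNA. Per the submitters' processing notes, bcl2fastq 2.17 and build mm10 were used; the aligner, the counter and its strand setting are not stated there. GENCODE M21 gene models on that build matched 37607 of 39017 identifiers.

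In edgeR 4.0.16 (R 4.3.3), filterByExpr kept 15968 genes, to which TMM scaling and a quasi-likelihood F test were applied, with no covariate and Benjamini-Hochberg adjusted p-values at a threshold of 0.05. SEs were derived from the F statistic. CPM used the TMM factors, and log2 CPM profiles a prior count of 2. The precision of a value is limited by its reads, from 17 a library for Cx3cr1. For CPM of 1 gene, a two-sided exact permutation p was taken over the 35 possible assignments. The test was checked on simulated counts. Changes were set there only in genes with more reads on average than Cx3cr1, so changes at its level were not covered. Alternatives were DESeq2 1.42.0 and its size factors, upper-quartile factors, limma 3.58.1 voom with quality weights, no filter, a filter of CPM of at least 1 in 3 libraries, a threshold of 0.1, a marker covariate, and each library left out. Leaving out cKO 2 and 7 together was added after seeing the data. Plots used Python 3.11.15 and matplotlib 3.10.9.

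The members and lists were chosen with earlier results of these data known. Genes were named by a rule: all 9 receptors, Kdm6a, Tbx21, Gata3 and Foxp3, up to 4 called genes of each other list with the lowest p (filled to 3 by abundance), the 3 genes most like each called receptor (mean CPM of at least 5; predicted genes and antigen receptor segments left out), and called neighbours. A few genes falling under it go unreported here.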

Additional observations from a re-analysis of the deposited data

Results flagged for a closer look

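In the cKO group of 4, a library was looked at again where its gap to the nearest other library, divided by the group's range, was above Dixon's critical value for that size. Chance gives such a gap in about 1 in 20 groups, and 9 of 79 genes had one; none of the 9 receptors described did. In cKO 2, Ccr3, an eosinophil and Th2 receptor gene, stood at 17.5 CPM, while the rest of the group had 3.13 to 5.08. The WT libraries, with 1.51 to 1.54 CPM of Ccr3, were below all of these. Also in cKO 2, Gata3 had 227 CPM against 136 to 151 in the rest of the group, and Lrrk1 had 35.1 CPM against 22.1 to 23.6. The myeloid markers Adgre1 (14.4 CPM, against 0.474 to 2.56) and Tyrobp (5.84 CPM, against 1.94 to 2.56) were also high in cKO 2. In cKO 12, the T cell gene Cd5 was high at 356 CPM, against 280 to 284, and the macrophage marker Cd68 was low at 6.39 CPM, against 8.86 to 9.35. Tpst2 was low in cKO 3 at 93.9 CPM, against 99.1 to 99.6, and Tpst1 high in cKO 7 at 19.4 CPM, against 15.1 to 15.7.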

How the results depend on the processing

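The count of risen receptors was 3 under each alternative run except 2 without WT 10, 14 or 19, each of which ended the Cxcr3 call (2 to 3 over the libraries left out in turn). The count of fallen receptors was 0, except 1 by limma voom (Ccr8), and 0 to 0 over the libraries left out. Over all genes, 446 were higher, and 271 with the marker covariate, 767 by DESeq2, 802 by limma voom, 769 at a threshold of 0.1, 257 without cKO 2 and 7 together, and 146 to 492 with a library left out. Lower genes were 582, and 927 by limma voom, 875 at a threshold of 0.1 and 273 to 638 with a library left out. On the log2 scale Ccr6 changed sign without WT 10 (0.10; -0.42 to 0.10 with a library left out). Ccr7 did so without cKO 2 (0.069) or WT 19 (0.032; -0.13 to 0.069 with a library left out), without cKO 2 and 7 together (0.077), with the marker covariate (0.12) and by limma voom (0.014). The cause was not tested. Leaving out cKO 2 and 7 together also ended the calls of Kdm6a (adjusted p = 0.11) and Tpst1 (0.127), and the marker covariate that of Kdm6a (0.0765). No paired analysis was possible because the groups share no replicate number. Ccr10 and Cx3cr1 rest on the fewest reads, 29 to 124 and 17 to 48 a library.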
